A study of Mus musculus with 2 samples.

Results

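The genes described here are 10 collagen genes, taken by symbol from a deposited table of 16463 genes that holds 37 collagen genes in all. They are the fibrillar collagen genes Col1a1, Col1a2, Col3a1, Col5a1, Col5a2 and Col11a1, the type VI genes Col6a1, Col6a2 and Col6a3, and Col12a1, whose product is not itself fibrillar but coats fibrils. RNA with poly(A) tails was sequenced from bone marrow-derived macrophages, cells grown from mouse marrow for 5 days in serum and medium conditioned by L929, a mouse fibroblast line that secretes the growth factor of macrophages. The TKO culture was labelled mir-106a~363-/-, mir-106b~25-/- and mir-17~92 flox/flox with Lyz2-Cre, so it lacked 2 microRNA clusters in every cell and the third only where Cre, driven by the myeloid lysozyme gene Lyz2, had acted. The WT culture carried Lyz2-Cre without these alleles. Both were labelled C57BL/6J and unstimulated, and the sources used here give neither the ages nor the numbers of the animals.

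There was 1 library per genotype, with 10656431 rounded counts in TKO and 10877897 in WT. No difference below therefore has a replicate check, no p-value was computed, and every interval is a 95% counting interval. Because these are bulk samples, fewer cells of a type and less RNA per cell cannot be told apart. The cultures carried the RNA of macrophages: all 12 macrophage markers on a chosen list were detected in both, their summed level was 4290 FPKM in TKO and 4033 FPKM in WT, and 0 of the 12 passed the size rule in either direction. FPKM is the deposited level, scaled for gene length and library size.

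Fibrillar collagens are secreted as rope-like triple helices that join end to end and side by side into the fibers of skin, bone and tendon. Type I, from Col1a1 and Col1a2, makes the bulk of these fibers, type III from Col3a1 mixes with it in soft tissue, and types V and XI form the cores on which fibrils start. Type VI collagen builds beaded filaments close to cells, and collagen XII lies on fibril surfaces. Fibroblasts, osteoblasts and smooth muscle cells are the known main producers, while macrophages are better known for engulfing and degrading collagen, though some are reported to make it.

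The collagens were far lower in the TKO library. Of the 10 genes, 9 reached the minimum of 20 counts in 1 library, and these 9 were called lower by 2.58-fold to 5.69-fold. The remaining gene, Col11a1, had too few counts to be called. A gene was called when its counts, scaled between libraries, differed by at least 2-fold with an interval that left out no change. Of all 11525 genes with enough counts, 2.30% were called lower by this rule. The 10 genes were chosen with this result known, so the count describes them and is no test. Summed over the 10 genes there were 1987 counts in TKO against 7311 in WT, which is 3.52-fold lower (3.35 to 3.70). This was 0.0186% of all counts in TKO (0.0178 to 0.0195) and 0.0672% in WT (0.0657 to 0.0688).

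**Figure D1:**
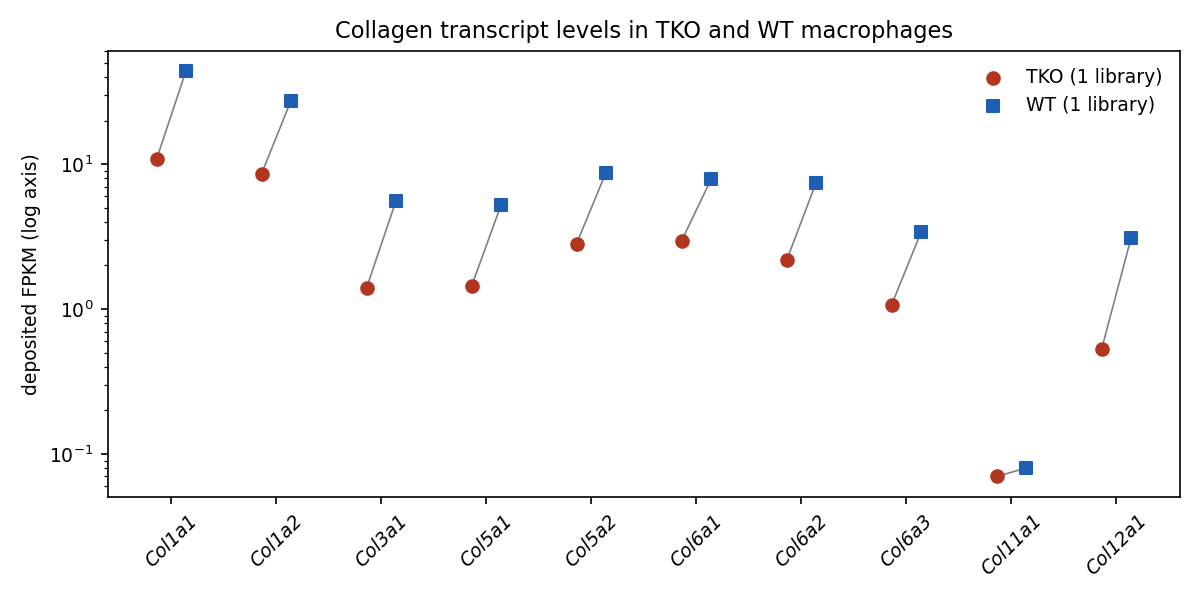
Deposited FPKM of the 10 collagen genes on a log axis, with the TKO library as a circle and the WT library as a square, joined by a line for each gene. The TKO value is below the WT value for every gene, and Col11a1 is near 0.1 FPKM in both libraries.

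Col1a1 (Entrez 12842, chromosome 11, 94936224 to 94953042, plus strand, GRCm38), which encodes the alpha 1 chain of type I collagen, was the most abundant of the 10 genes per length in both libraries. It had 693 counts and 10.8 FPKM in TKO, against 2871 counts and 43.9 FPKM in WT. The log2 ratio of TKO over WT was -1.99 (-2.11 to -1.86), or 3.96-fold lower. In the WT library Col1a1 stood above 89.3% of all genes in FPKM, and in the TKO library above 64.7%.

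Col1a2 (Entrez 12843, chromosome 6, 4504814 to 4541544, plus strand), the partner chain of type I collagen, had 483 counts and 8.59 FPKM in TKO, against 1570 counts and 27.4 FPKM in WT. Its log2 ratio was -1.64 (-1.79 to -1.49). The intervals of Col1a1 and Col1a2 did not overlap, so the pair did not shift by the same factor within counting error. Per length, Col1a1 stood at 1.26 times Col1a2 in TKO (1.12 to 1.42) and at 1.61 times in WT (1.51 to 1.71). A type I molecule usually contains more alpha 1 than alpha 2 chain, and Col1a1 was above Col1a2 per length in both libraries.

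Col3a1 (Entrez 12825, chromosome 1, 45311538 to 45349706, plus strand), the only gene of type III collagen, had 84 counts and 1.40 FPKM in TKO, against 341 counts and 5.58 FPKM in WT. The log2 ratio was -1.96 (-2.32 to -1.61), with an interval that overlapped those of both type I genes.

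Col5a1 (Entrez 12831, chromosome 2, 27886425 to 28039514, plus strand) and Col5a2 (Entrez 12832, chromosome 1, 45374321 to 45503282, minus strand) encode the chains of the common form of type V collagen, which limits fibril width. Col5a1 had 131 counts and 1.44 FPKM in TKO, against 483 counts and 5.21 FPKM in WT. Its log2 ratio was -1.82 (-2.11 to -1.54). Col5a2 had 202 counts and 2.83 FPKM in TKO, against 637 counts and 8.76 FPKM in WT. Its log2 ratio was -1.59 (-1.83 to -1.36), overlapping that of Col5a1. Per length, Col5a1 stood at 0.509 times Col5a2 in TKO (0.406 to 0.638) and at 0.596 times in WT (0.528 to 0.672), intervals that overlap.

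Col11a1 (Entrez 12814, chromosome 3, 114030540 to 114220718, plus strand), a fibril core chain best known from cartilage, was near the limit of detection. It had 6 counts and 0.07 FPKM in TKO, against 7 counts and 0.08 FPKM in WT. The log2 ratio was -0.16 with an interval from -2.01 to 1.64, so neither no change nor a fall like those of the called genes other than Col12a1 lay outside it, and a difference was not detectable at this depth.

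Col6a1 (Entrez 12833, chromosome 10, 76708792 to 76726168, minus strand), Col6a2 (Entrez 12834, chromosome 10, 76595762 to 76623630, minus strand) and Col6a3 (Entrez 12835, chromosome 1, 90765923 to 90843971, minus strand) encode the chains of classical type VI collagen. Col6a1 had 127 counts and 2.96 FPKM in TKO, against 343 counts and 7.84 FPKM in WT. Its log2 ratio of -1.37 (-1.67 to -1.07) was the nearest to 0 of the 9 genes called on this scale. Col6a2 had 87 counts and 2.17 FPKM in TKO, against 303 counts and 7.42 FPKM in WT, a log2 ratio of -1.73 (-2.10 to -1.39). Col6a3 had 107 counts and 1.07 FPKM in TKO, against 357 counts and 3.38 FPKM in WT, a log2 ratio of -1.67 (-1.998 to -1.36). All 3 genes were lower in TKO and their intervals overlapped one another.

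For the type VI chains, the ratios between genes had intervals that overlapped between the libraries. Per length, Col6a1 stood at 1.36 times Col6a2 in TKO (1.03 to 1.81) and at 1.06 times in WT (0.904 to 1.24). Col6a3 stood at 0.362 times Col6a1 in TKO (0.277 to 0.472) and at 0.447 times in WT (0.385 to 0.520).

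Col12a1 (Entrez 12816, chromosome 9, 79598991 to 79718831, minus strand), whose product links fibrils to the surrounding matrix, had the lowest ratio of the 9 called genes. It had 67 counts and 0.53 FPKM in TKO, against 399 counts and 3.09 FPKM in WT. The log2 ratio was -2.51 (-2.90 to -2.13), or 5.69-fold lower (4.38 to 7.49). Its interval lay below those of 7 of the other 8 called genes and overlapped that of Col3a1. On the scale of log2 of FPKM plus 1, which shrinks low levels, Col12a1 was at -1.42, less far below 0 than Col1a1 at -1.93, Col1a2 at -1.57 and Col3a1 at -1.46.

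**Figure D2:**
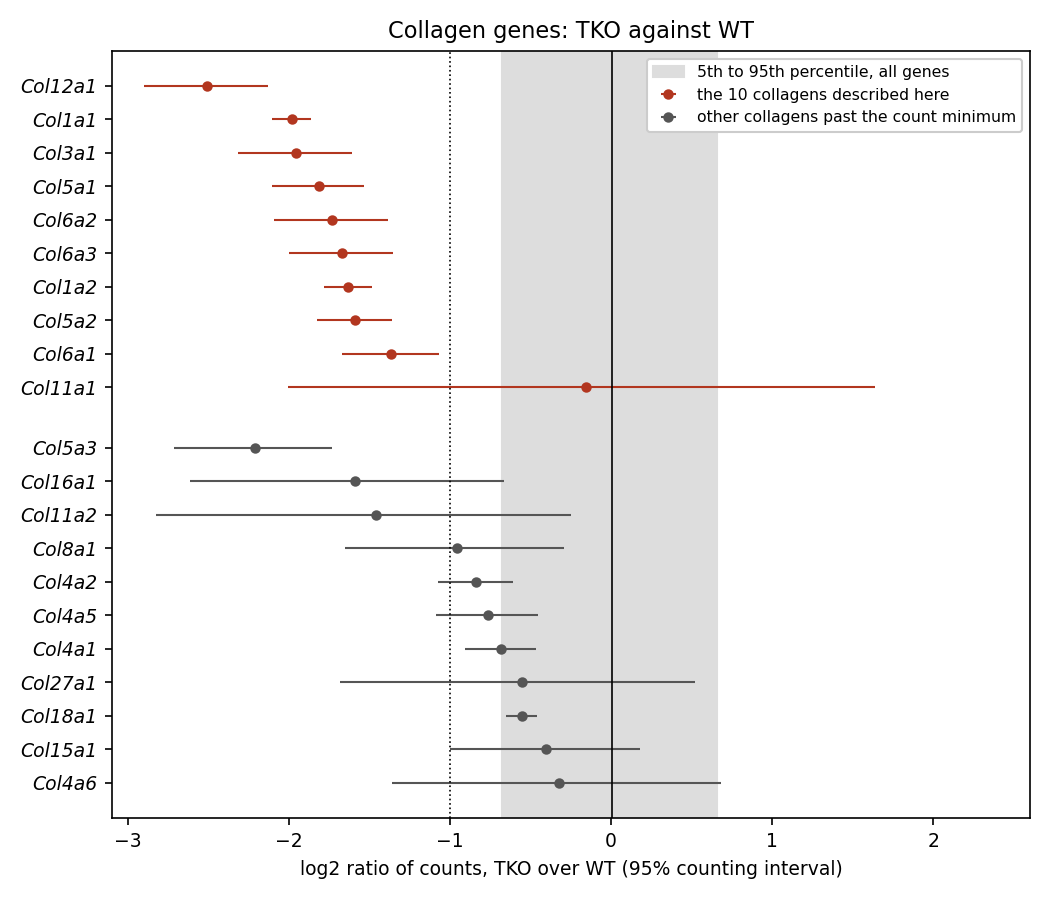
Log2 ratio of counts, TKO over WT, with the 95% counting interval as a bar, for the 10 collagens in red and for the 11 other collagen genes with at least 20 counts in grey. The grey band spans the 5th to 95th percentile of all genes, -0.68 to 0.66, the solid line is their median and the dotted line marks 2-fold lower; the intervals of 9 of the 10 red genes lie wholly to the left of the dotted line.

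Most called genes could not be told apart by the size of their change. Of the 36 pairs among the 9 genes, 26 had overlapping intervals and 10 did not. Of those 10, 7 involved Col12a1 and the other 3 set Col1a1 below Col1a2, Col5a2 and Col6a1. The median log2 ratio of the 9 genes was -1.73, against 0.0043 over all 11525 genes. Ranked from the lowest ratio, Col12a1 was 18th of 11525, Col1a1 30th, Col3a1 32nd, Col5a1 49th, Col6a2 59th, Col6a3 69th, Col1a2 74th, Col5a2 82nd and Col6a1 126th.

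By type, the fall was 3.61-fold for the summed type I genes (3.38 to 3.85), 3.21-fold for type V (2.84 to 3.64) and 2.99-fold for type VI (2.63 to 3.40). These intervals overlapped, that of type VI with that of type I only at its end. Type I made up 1176 of 1987 collagen counts in TKO and 4441 of 7311 in WT.

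In both libraries the type I genes had the highest levels and Col12a1 and Col11a1 the lowest. In TKO the order by FPKM ran Col1a1, Col1a2, Col6a1, Col5a2, Col6a2, Col5a1, Col3a1, Col6a3, Col12a1 and Col11a1. In WT it ran Col1a1, Col1a2, Col5a2, Col6a1, Col6a2, Col3a1, Col5a1, Col6a3, Col12a1 and Col11a1. Neighbours in the order whose counting intervals overlapped in both libraries were Col5a2 and Col6a1, and Col3a1 and Col5a1. Col6a3 and Col12a1 overlapped in WT, at 3.38 and 3.09 FPKM, but not in TKO, at 1.07 and 0.53 FPKM. Col5a2 and Col6a1 changed places between the libraries, as did Col3a1 and Col5a1, each within overlapping intervals.

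Gene length needs to be read beside these ratios, because longer genes tended to be lower in the TKO library as a whole. The 9 called collagens have deposited lengths of 3729 to 11719 bases. Among the 3733 genes within that range the median log2 ratio was -0.17 and 3.48% were called lower. Genes of 8000 bases or more, which include Col5a1, Col6a3 and Col12a1, had a median of -0.41. With the smooth trend of the ratio on length removed, the 9 collagens lay between -2.06 for Col12a1 and -1.30 for Col6a3, and all 9 were still called. Col1a1 was then at -1.76, Col3a1 at -1.76, Col6a2 at -1.69, Col5a1 at -1.47, Col1a2 at -1.46, Col5a2 at -1.33 and Col6a1 at -1.30. Across the 9 genes Spearman's rho of the ratio with length was -0.43, a description over genes of the same 2 libraries. The part of length in the collagen ratios beyond this trend was not tested.

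**Figure D3:**
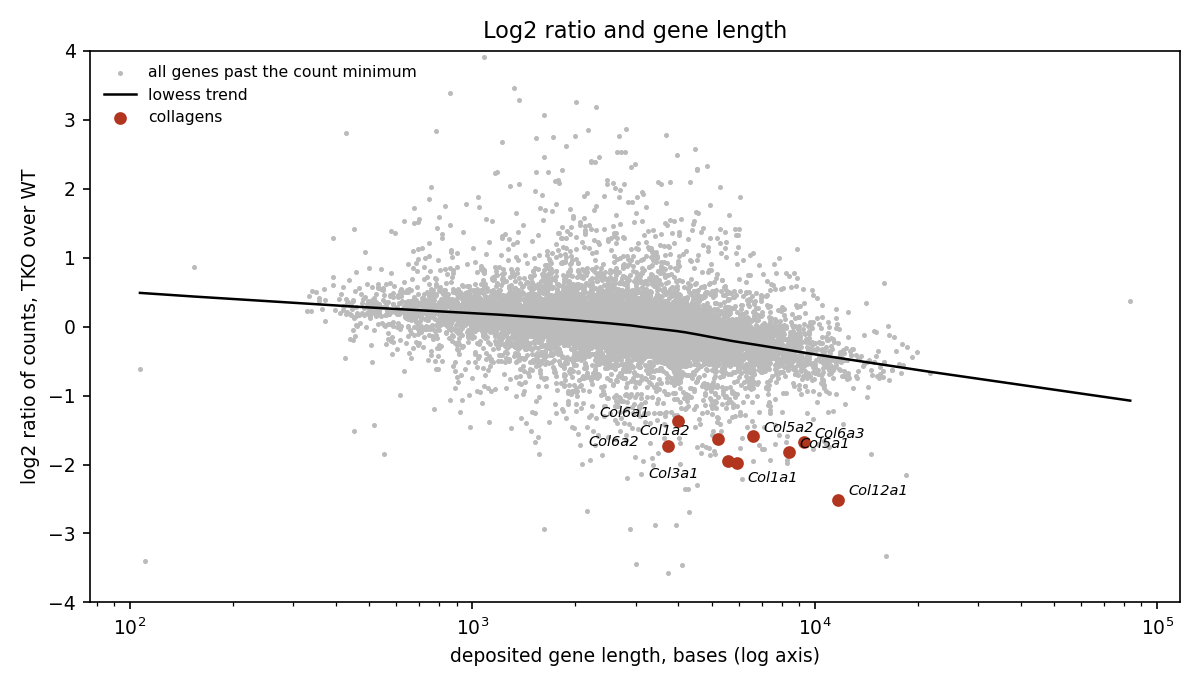
Log2 ratio of counts, TKO over WT, against deposited gene length on a log axis for all genes with at least 20 counts (grey), with the lowess trend as a line and the 9 called collagens in red; 27 genes lie outside the axis limits of -4 and 4. All 9 collagens lie below the line, from Col6a1 at -1.37 to Col12a1 at -2.51.

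In the GENCODE annotation no exon of 8 of the 10 genes overlaps another gene. Exons of Col5a1 overlap the antisense transcripts 2810430I11Rik and Gm13372, and an exon of Col3a1 overlaps the predicted microRNA Gm47302. None of these is listed in the deposited table, and the sources used here do not say whether counting used strand. The deposited counts of Col5a1 in both libraries and of Col6a3 in TKO were not whole, as estimated counts can be when reads match more than 1 place. Col6a1 and Col6a2 lie 85161 bases apart on chromosome 10 in the same direction, and Col3a1 and Col5a2 lie 24614 bases apart on chromosome 1, with their 3' ends facing and no annotated gene between them.

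The microRNAs encoded by the clusters targeted in the TKO mice fall into 4 families by seed, those of miR-17, miR-18a, miR-19a and miR-92a, and matches to these seeds were looked up in the collagen 3' UTRs. A microRNA finds most of its targets by pairing its seed, bases 2 to 8, with the 3' UTR, and usually lowers the target. The miR-29 family, which is not part of the clusters and is known for binding many collagen mRNAs, is shown for comparison. Mature sequences are from RefSeq on GRCm38.p6, 5′ to 3′, with the seed in capitals.
miR-17-5p: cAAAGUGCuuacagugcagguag
miR-18a-5p: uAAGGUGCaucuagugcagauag
miR-19a-3p: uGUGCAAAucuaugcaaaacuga
miR-92a-3p: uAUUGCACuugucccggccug
miR-29a-3p: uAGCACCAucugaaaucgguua

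Sites that pair with seed bases 2 to 8 were counted for each collagen gene in its longest 3' UTR of the GENCODE M21 annotation (GRCm38). None of the 10 genes held a site for the miR-17 or miR-19 seed, against 14.9% and 13.4% of 10769 searched genes. Col5a1 alone held 1 for miR-18, against 9.36% of searched genes. The seed of miR-92a, shared with miR-25 and miR-363 of the targeted clusters and also with miR-32, miR-92b and miR-367, had 1 site in each of 5 genes. By comparison, 7.61% of searched genes held such a site, and 6.74% of the 4762 with a 3' UTR within the length range of the collagens. The 5 sites are shown because they are the matches to a targeted family that recur among these genes. They are printed 5′ to 3′ in the sense of the mRNA, as DNA letters, with the bases that pair with the seed in capitals.
Col1a1: ctattcctcaGTGCAATtgtgtt
Col1a2: tcagagcagtGTGCAATatgatc
Col5a1: ccacaagaatGTGCAATaatttg
Col11a1: ttataaatttGTGCAATgttagg
Col12a1: cccaggttttGTGCAATgattgt

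The 4 called genes that hold a site had log2 ratios from -2.51 to -1.64, and the 5 called genes without one from -1.96 to -1.37, so the ranges overlapped. The miR-29 seed had 11 sites in 7 of the 10 genes, 4 of them in Col5a1 and 2 in Col11a1, against 16.2% of all searched genes with at least 1. The 6 called genes with a miR-29 site lay between -1.99 and -1.59, and the 3 without one, Col1a2, Col6a1 and Col12a1, between -2.51 and -1.37. A match is a string of letters and not a measured binding event, and mature microRNAs were not measured here.

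Promoter windows, from 250 bases before to 50 bases after the RefSeq start, were found for 7 of the 10 genes on GRCm38.p6; Col1a1, Col5a2 and Col12a1 had none in the table. Of these 7, all but Col11a1 were called lower, and their windows differed widely in composition. The Col5a1 window had a GC content of 75.0% and 34 CpG pairs, and the Col3a1 window 37.7% and 0 CpG pairs, against a median of 52.7% over 32851 windows. Both extremes are shown with Col1a2, the most abundant gene that has a window. They lie at chr2:27886175-27886474 (plus strand, Col5a1), chr1:45311288-45311587 (plus strand, Col3a1) and chr6:4505368-4505667 (plus strand, Col1a2). Capitals mark, on either strand, the TATA box (TATAAA), the CCAAT box (CCAAT) or the GC box (GGGCGG), which do not overlap here.
Col5a1: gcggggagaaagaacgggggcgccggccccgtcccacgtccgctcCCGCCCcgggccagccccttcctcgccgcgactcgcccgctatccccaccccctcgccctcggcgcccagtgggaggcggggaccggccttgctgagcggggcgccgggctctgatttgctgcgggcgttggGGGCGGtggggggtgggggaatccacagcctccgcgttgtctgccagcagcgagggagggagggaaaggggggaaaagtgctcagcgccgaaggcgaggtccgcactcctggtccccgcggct
Col3a1: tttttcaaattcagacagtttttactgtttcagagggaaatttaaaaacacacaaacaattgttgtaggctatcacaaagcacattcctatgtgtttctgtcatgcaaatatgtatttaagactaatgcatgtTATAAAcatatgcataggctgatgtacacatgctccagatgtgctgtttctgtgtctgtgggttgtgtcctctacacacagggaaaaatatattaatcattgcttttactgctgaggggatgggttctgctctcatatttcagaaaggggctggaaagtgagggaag
Col1a2: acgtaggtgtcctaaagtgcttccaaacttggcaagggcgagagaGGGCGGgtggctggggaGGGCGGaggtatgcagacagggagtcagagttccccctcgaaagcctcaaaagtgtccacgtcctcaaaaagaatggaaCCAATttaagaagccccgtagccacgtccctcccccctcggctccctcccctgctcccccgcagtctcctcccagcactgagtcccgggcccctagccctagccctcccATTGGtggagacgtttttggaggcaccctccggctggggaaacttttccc

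A GC box was found in the windows of 4 of the 7 genes, Col1a2, Col5a1, Col6a2 and Col11a1, and in 35.7% of all windows. A CCAAT box was found in 2 of the 7, Col1a2 and Col11a1, and in 37.4% of all windows. The letters of the TATA box were found in 1, Col3a1, starting 117 bases before the start, and in 13.6% of all windows. The windows of Col6a1 and Col6a3 held none of these letters. No motif of this kind was shared by all 7 genes. Each box here is a match of letters anywhere in the window, and its use as a promoter element was not tested.

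The other 27 collagen genes of the table, summed, were 1.59-fold lower in TKO (1.51 to 1.67), an interval below that of the 10 genes. Of these, 11 reached the count minimum, all 11 had a log2 ratio below 0, and 3 were called lower. Their median was -0.77, and -0.52 without the trend on length. The called genes were Col5a3, the third chain gene of type V, with 44 counts in TKO and 213 in WT (log2 ratio -2.21, -2.71 to -1.74), Col16a1, a fibril-associated collagen, with 13 and 41 counts in TKO and WT (-1.59), and the fibrillar gene Col11a2 with 8 and 23 (-1.46). Col4a1 and Col4a2, which form the main basement membrane collagen, together were 1.69-fold lower (1.52 to 1.89), an interval that lay apart from that of the 10 genes summed. Col18a1, a basement membrane collagen and the most abundant of the other 27, had 26.7 FPKM in TKO and 40.3 FPKM in WT, a log2 ratio of -0.55 (-0.65 to -0.46), and was not called. In the TKO library Col18a1 was thus above Col1a1 in FPKM, at 26.7 against 10.8, and in the WT library below it, at 40.3 against 43.9.

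Collagen chains are folded and modified inside the cell, then cleaved and cross-linked outside it. In the lists below, a measured gene is one with at least 20 counts in 1 library. Of 8 measured genes for procollagen cleavage and cross-linking, 5 were called lower and 0 higher, with a median log2 ratio of -1.05 (-1.11 without the trend on length). Among them were Bmp1, which trims the procollagen end, at -1.46, its enhancer Pcolce at -1.08, and the cross-linking enzymes Lox and Loxl2 at -1.34 and -1.38. Tgm2, a transglutaminase and the most abundant of the list, was at 0.62. Of 18 measured folding and modification genes, 6 were called lower and 0 higher, with a median of -0.031. Serpinh1, the collagen chaperone HSP47, had 132 counts in TKO and 307 in WT (-1.15), Fkbp10, a prolyl isomerase of the collagen pathway, was at -1.63, Fkbp14, of the same enzyme class, at -1.32 and Plod2, a lysyl hydroxylase, at -1.43. P4hb, a subunit of prolyl hydroxylase that serves many proteins, was the most abundant and stood at 0.14. For all genes, 2.43% were called higher.

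Of 10 measured matrix proteins found with collagen fibrils, 6 were called lower and 0 higher, with a median of -1.22 (-1.10 without the trend on length). The cell adhesion proteins Postn, Fn1 and Tnc were at -1.95, -1.67 and -1.45 and Fbn1, the main protein of microfibrils, at -1.78, while Tgfbi, the most abundant, had 549 FPKM in TKO and 669 FPKM in WT (-0.25). Among 12 measured collagen receptors, 3 were called lower on few counts and 0 higher, with a median of -0.39. Ddr2, a collagen receptor kinase of mesenchymal cells, had 14 counts in TKO and 58 in WT (-1.99), Itga11, a collagen-binding integrin chain, 14 and 53 in TKO and WT (-1.86), and Ddr1, the related kinase, 14 and 45 (-1.62). Itgb1, the shared beta chain of collagen-binding integrins, was at 0.043. Among 14 measured genes for collagen breakdown, 2 were called lower, the inhibitor Timp3 at -1.71 and the gelatinase Mmp9 at -1.39, and 0 higher. Their median was -0.42, and the lysosomal protease Ctss, the most abundant, was at 0.51.

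Markers of cells that make collagen were read beside the collagens, since marrow cultures can hold other cells. Of 21 fibroblast and stromal markers in the table, collagens left out, 11 had at least 20 counts, and 2 were called lower and 0 higher. Among the 11, 8 had a log2 ratio below 0 and 3 above, with a median of -0.60 (-0.41 without the trend on length). Pdgfra, a receptor of mesenchymal cells, had 13 counts in TKO and 35 in WT (-1.36), and Cdh11, an adhesion molecule of these cells, had 87 in TKO and 207 in WT (-1.18). Dcn, Prrx1 and Pdgfrb were at -0.93, -0.85 and -0.60 and were not called, and Thy1 was at -0.26. Pdpn, the most abundant of the list, is made by macrophages too and was at 0.38. The summed level of the list was 86.4 FPKM in TKO and 83.3 FPKM in WT, most of it from Pdpn, Eng and Tcf4. Fap, Lum, Twist1 and Twist2 had at most 8 counts in either library, and Ebf2 was at 0 in TKO and 2 counts in WT. The 6 measured smooth muscle markers all had a log2 ratio below 0, with a median of -0.66, and 0 were called. Acta2, a contractile actin and the most abundant, was at -0.85. The summed level of all 9 smooth muscle genes in the table was 35.6 FPKM in TKO and 58.4 FPKM in WT.

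Other lists gave values on both sides of 0. Runx2, a bone transcription factor, was the only gene of the bone and cartilage list with at least 20 counts and was at 0.15. The other 10 in the table had too few counts to be called. In TKO and WT, Sp7 had 3 and 13 counts, Alpl 6 and 12, Sox9 8 and 15, Phex 1 and 4, Dmp1 1 and 3, and Comp 5 and 6. Acan had 1 count in each library, Matn1 and Matn3 had 2 and 1, and Ibsp 1 and 0. All genes of the list in the table summed to 3.09 FPKM in TKO and 3.62 FPKM in WT. The 7 measured endothelial markers had a median of 0.22, with 5 above 0 and 2 below. Kdr, a growth factor receptor, was called higher at 1.15, and Vwf, the most abundant, was at 0.58. The 2 below 0 were Flt1 at -0.71 and Emcn at -0.31. All 12 genes of that list summed to 26.5 FPKM in TKO and 19.3 FPKM in WT. The 3 measured adipocyte markers had a median of -0.19 with 0 called, with Lpl, a lipase that macrophages also make, at -0.50, and all 4 in the table summed to 377 FPKM in TKO and 466 FPKM in WT. Whether a change in the share of stromal cells has a part in the collagen difference was not tested.

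**Figure D4:**
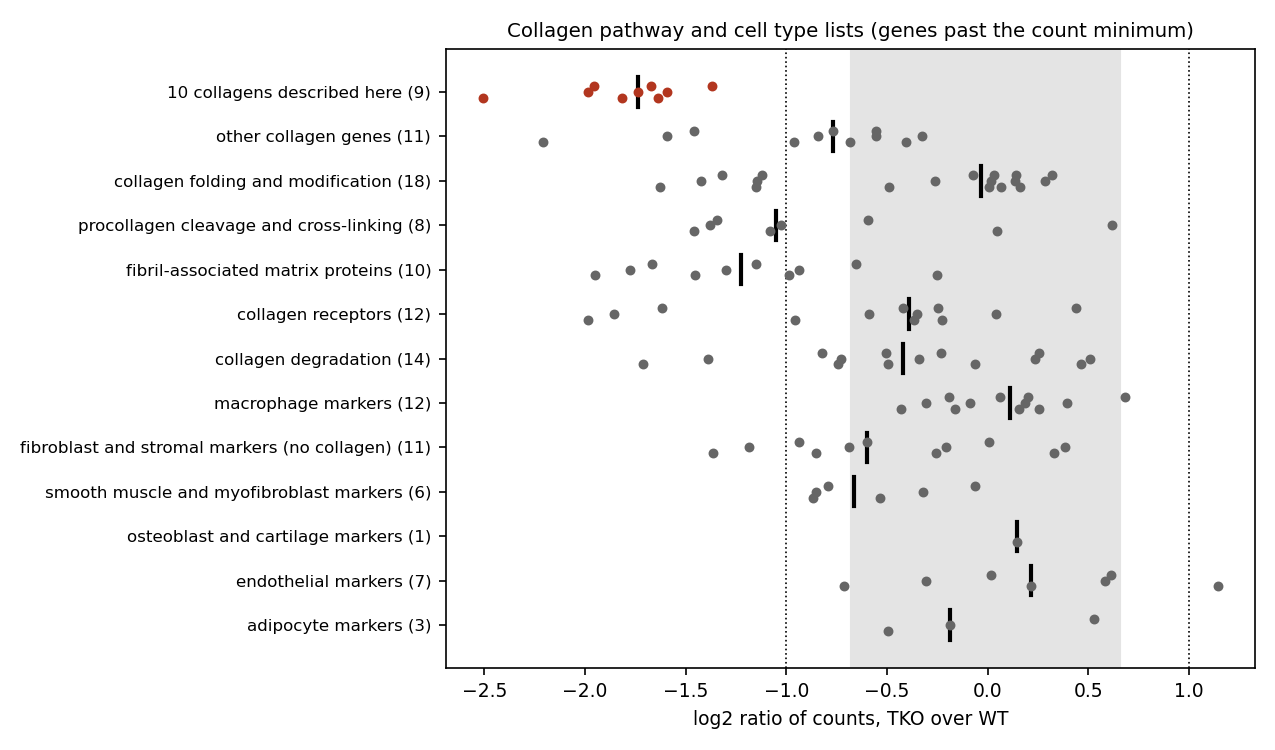
Log2 ratio of counts, TKO over WT, for each gene with at least 20 counts in the 10 collagens (red) and in 12 lists (grey), with the number of such genes in brackets, the median of each list as a bar, the 5th to 95th percentile of all genes as a band and 2-fold lower and higher as dotted lines. The collagens lie between -2.51 and -1.37, the macrophage markers all lie between the dotted lines, and the fibroblast markers reach from -1.36 to 0.38.

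Among genes on none of these lists, those with the log2 ratio nearest to the collagen median of -1.73 were sought over 8085 named genes with at least 5 FPKM in 1 library. They were Inhba, a subunit of activin, at -1.67, the ubiquitin ligase gene Cbl at -1.81, the histone gene Hist1h2ao at -1.84, Wdfy1 at -1.62 and Zbed6 at -1.58. Likeness here is a small difference in 1 ratio between 2 libraries. Hist1h2ao has near-identical copies, and its counts are uncertain.

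In the authors' deposited table the log2 ratio of FPKM was -2.54 for Col12a1, -2.02 for Col1a1 and -1.41 for Col6a1, and its FDR was at most 1.09e-21 for the 9 called genes and 0.91 for Col11a1. That test, which the sources used here do not describe, compares 2 libraries, not 2 genotypes.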

How the data were processed

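The deposited table gives, for 1 TKO and 1 WT library, counts, FPKM and a length per gene; 0 columns of per-sample values were unmatched. RSEM 1.2.12, HISAT2 2.0.4, Bowtie2 2.2.5 and the build mm10 are named, without a role for each, per the submitters' processing notes; the sources used here name no annotation. The deposited values are expected counts (estimated reads per gene, not whole for 21.1% of genes in TKO and 21.3% in WT), FPKM per the file headers (lowest value 0.01), and the authors' log2 ratio of FPKM, p-value and FDR. The FDR is treated as a deposited score because 713 values exceed 1.

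Expected counts were rounded and scaled by TMM (edgeR 4.0.16, R 4.3.3; factors 0.988 for TKO and 1.01 for WT). Log2 ratios have exact conditional binomial (Clopper-Pearson) 95% intervals, and levels exact Poisson intervals; library shares are Clopper-Pearson. All cover counting error only, and may be too narrow even for that, since reads lacking molecular identifiers may repeat a molecule. A ratio against 0 counts uses 3 counts, what an observed 0 allows. The size rule needed a log2 ratio of at least 1 in size, an interval without 0 and 20 counts in 1 library. It was tried on counts simulated with counting error alone. That trial cannot show how the rule fares with variation between cultures. The length trend is a lowess fit (span 0.3; statsmodels 0.14.6) over genes past the minimum.

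Coordinates and 3' UTRs are from GENCODE M21 (GRCm38, the assembly of mm10; matched by symbol, with the Entrez identifier the same for all 10 genes), microRNA and promoter sequences from RefSeq. All 10 members are named; from each of 12 lists up to 4 called genes with the largest ratio and the most abundant gene, with a few further genes and counts chosen after their values were seen; and the 5 nearest genes. Members and lists were chosen with earlier results of these data known.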

Additional observations from a re-analysis of the deposited data

How the results depend on the processing

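With library totals or size factors from DESeq2 1.42.0 in place of TMM, 9 of the 10 collagens were called lower. The count was 9 with the deposited FPKM too, by the 2-fold threshold and the count minimum alone, as FPKM ratios had no interval. In each case the 9 genes stayed inside their own counting intervals. Changing the library scaling shifts all genes by the same amount, and the FPKM come from the same reads, so staying inside is no separate check. The count was also 9 with the length trend removed, with no count minimum or 100 counts. It was 9 with a 1.5-fold threshold or a 99% interval, and 8 without Col1a1. With log2 of FPKM plus 1 it was 9 too, by the 2-fold threshold alone and for genes of at least 1 FPKM. At a 4-fold threshold it was 1, Col12a1, as the rule then asks for more than most of the genes show. Over all genes, 265 of 11525 were called lower by the main rule, 636 at 1.5-fold, 26 at 4-fold and 222 with the 99% interval. With the length trend removed 240 were called, with 100 counts 95 of 9257 and with no count minimum 321 of 14707. The calls were 122 of 11297 with log2 of FPKM plus 1, 292 of 11525 with library totals, 276 with DESeq2 and 308 with deposited FPKM. The median log2 ratio was -1.41 with log2 of FPKM plus 1, which shrinks low values, and -1.47 with the length trend removed. The log2 ratio of the summed counts was -1.81, and -1.60 with the length trend removed, -1.71 without Col1a1 and -1.31 over all 37 collagen genes, a sum added after seeing the data. No value changed sign under these settings. No replicate could be left out, and no paired analysis was possible because each genotype had 1 library. Depth limits Col11a1, with 6 counts in TKO and 7 in WT, and the 16 other collagens under the count minimum.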
